A study of Gallus gallus with 2 samples.

Results

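The long non-coding RNAs (lncRNAs) described here are the transcripts of chicken breast muscle whose interval lies on a piece of the genome assembly without a place on a chromosome. Chosen were all entries of a deposited lncRNA table on unplaced scaffolds, named chrUn, and on scaffolds that belong to a chromosome or linkage group but have no position in it, named random, leaving out those of the sex chromosomes Z and W. They number 1274 of 21993 listed transcripts, or 5.79%. The choice used position only and no measured value. Of the 1274, 1102 lie on chrUn scaffolds and 172 on random scaffolds, and 1268 reached 0.5 RPKM in the higher library. RPKM is the number of reads per kilobase of transcript and per M reads of the library.

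The table holds 1 library of White Recessive Rock (WRR) birds, labelled fast-growing, and 1 of Xing Hua (XH) birds, a native Chinese strain labelled slow-growing. Per the labels, each library is a pool of equal amounts of breast muscle RNA from 4 females aged 7 weeks, chosen for an average body weight, which was 625.3 ± 12.0 g in WRR and 328.5 ± 10.6 g in XH (kind of error not named). All birds had the same feed and room, in different cages, and ribosomal RNA was removed before sequencing. With 1 pooled library per strain there is no replicate, so no test between strains was possible and every difference below is between these 2 libraries. Intervals of folds, read ratios and read shares are 95% exact intervals of counting error, which leave out differences between birds and library preparation. Those of medians are 95% intervals from order statistics over transcripts, which are not replicates. In pooled tissue, fewer cells of a type and less RNA per cell cannot be told apart. The table names no gene, so the labelled tissue could not be checked against muscle markers.

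LncRNAs are RNAs above a conventional length limit that are not translated into a known protein, and many are spliced, capped and restricted to few tissues. Some act on neighbouring genes, others in the cytoplasm, and for most no role is known. Scaffolds stay outside the chromosomes of an assembly when their ends cannot be joined, which happens most often with repeated, duplicated or GC-rich sequence. The chicken genome has many microchromosomes, small and gene-dense, which are rich in GC and are assembled less fully than the large chromosomes. Scaffolds named with AADN are contigs of the assembly's shotgun sequence, and those named with JH are joined from several such contigs.

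The 1274 transcripts lay on 949 scaffolds, 835 of them chrUn and 114 random. Most of these scaffolds were short. Their size ranged from 501 to 413986 bases with a median of 1513 (quartiles 1164 and 4405), and 592 scaffolds (62.4%) were under 2000 bases. The 764 AADN-named scaffolds had a median of 1343 bases and the 180 JH-named scaffolds one of 6186 bases. Together the scaffolds held 6.05 Mb, or 211 listed lncRNAs per Mb of scaffolds with at least 1 lncRNA. A lone lncRNA was listed on 771 scaffolds, while 178 scaffolds had 2 or more, in all 503 transcripts.

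Transcript length ran from 201 to 9830 bases with a median of 695 bases, against 844 bases for all listed lncRNAs. The interval equalled the length for 1019 transcripts. It was longer than the transcript for 212 (16.6%, against 4.84% of all listed lncRNAs), as for a transcript with introns. It was shorter than the transcript for 43, which is 43 of the 74 such entries in the whole table. Of these 43, 23 were longer than the scaffold they are listed on. The median transcript's interval took up 32.5% of its scaffold. Within 50 bases of a scaffold end lay 468 transcripts, 73 of them within 50 bases of both ends, 35 started at base 1 and 19 ended at the last base. Many of these entries thus lie close to an end of the assembled sequence, but few are listed up to its first or last base. All positions are those of galGal4, counted from 1, and no strand, exon or sequence is listed for them.

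The scaffold lncRNAs were more abundant per length than the other listed lncRNAs in each library. Their median stood at 4.85 RPKM in WRR, with quartiles of 2.18 and 12.3, and at 6.44 RPKM in XH, with quartiles of 3.49 and 14.1. The other listed lncRNAs had medians of 2.57 RPKM in WRR, against 4.41 RPKM in XH. At least 10 RPKM was reached by 378 scaffold lncRNAs in WRR (29.7%) and 431 in XH (33.8%), against 10% and 19.9% of the others in the same libraries. Among the most abundant lncRNAs their share was larger in WRR than in XH. Of 135 listed lncRNAs with at least 100 RPKM in WRR, 53 (39.3%) lay on these scaffolds, and of 143 in XH, 29 (20.3%).

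**Figure D1:**
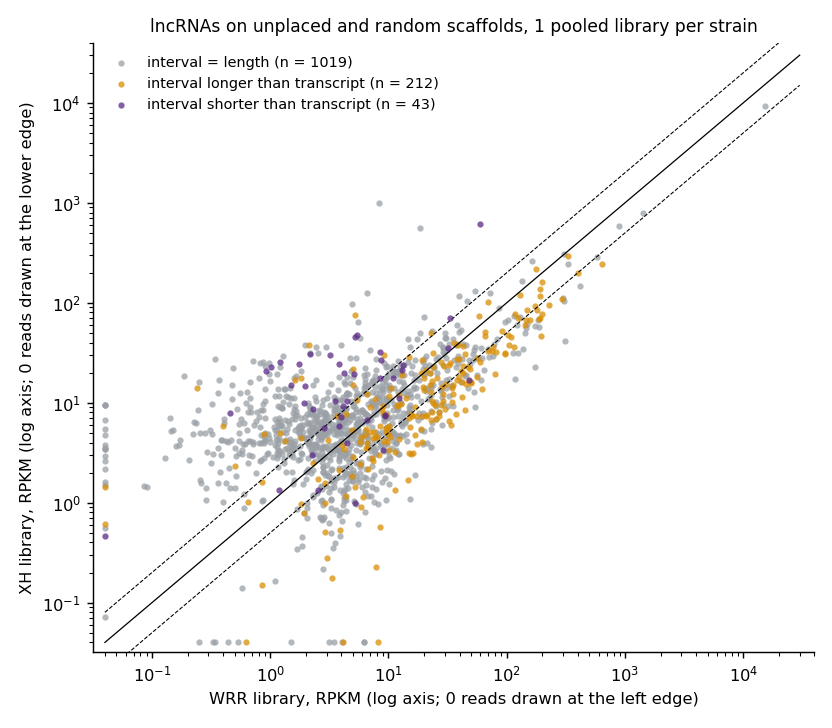
RPKM of each of the 1274 scaffold lncRNAs in the WRR library (x axis, log scale) and the XH library (y axis, log scale), coloured by whether the interval equals, exceeds or falls short of the transcript length. The solid line marks equal values and the dashed lines 2-fold. Of 144 points with over 20 RPKM in both libraries, 102 lie below the solid line, towards WRR, while 3 of the 6 points with over 500 RPKM in XH lie far above it.

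Summed over all of them, the reads per library total were close between the libraries. In WRR 182742 reads fell on the scaffold lncRNAs, which is 9.9% of the reads listed in the table (9.86 to 9.94%) and 1.94% of the library total of 9.44 M. In XH, 154448 reads did, 8.2% of the listed reads (8.16 to 8.24%) and 2% of the library total of 7.71 M. The ratio of summed reads per total, WRR over XH, was 0.967 (0.96 to 0.973). A few transcripts held much of this sum. The most abundant transcript took 16.5% of the scaffold reads in WRR and 9.67% in XH, and the 10 with most reads in each library took 40.9% in WRR and 35.2% in XH. Single entries were shallow, as the median scaffold lncRNA had 33 reads in WRR and 34 in XH.

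Coverage, the percent of a transcript's length that reads cover, had a median of 86.6% in WRR (64.7 and 96 as quartiles) and of 89% in XH (71.5 and 96.3). For the other listed lncRNAs it was 79.4% in WRR and 89.5% in XH. At the same number of reads per kilobase the scaffold lncRNAs were covered slightly less than the others. With 20 to below 50 reads per kilobase, their median coverage was 84.1% in WRR and 85.9% in XH, against 86.4% and 88.9% of the others in the same libraries. Transcripts with at least 50 reads that covered less than 50% of the length were few, 11 of 499 in WRR (2.2%, 1.11 to 3.91%) and 7 of 496 in XH (1.41%, 0.569 to 2.89%). Of the other listed lncRNAs with as many reads, 0.998% (0.726 to 1.34%) in WRR and 1.1% (0.855 to 1.4%) in XH were covered that little. These intervals were taken over transcripts, which are not replicates, and so give no test between the groups.

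The comparison between the fast-growing WRR and the slow-growing XH used log2((WRR + 0.1) / (XH + 0.1)) of the RPKM values, so that a positive value is higher in WRR. This scale understates the difference of low transcripts. The median over the 1268 scaffold lncRNAs past 0.5 RPKM was -0.17 (interval from order statistics -0.34 to -0.075, quartiles -1.37 and 0.98), against -0.94 over the other listed lncRNAs, a difference of 0.77. At least 2-fold higher in WRR were 306 (24.1%), where 9.45% of all listed lncRNAs past the filter were, and at least 2-fold higher in XH were 417 (32.9%), where 46.9% of all were. The remaining 545 lay within 2-fold. The scaffold lncRNAs thus leaned less towards XH than the table as a whole and were more often at least 2-fold higher in WRR.

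The median of all listed lncRNAs past the filter was itself -0.92, and a scaling that sets it to 0 moves every ratio by 0.92. Relative to it the scaffold median was 0.75, with the sign turned, and 549 scaffold lncRNAs were at least 2-fold higher in WRR (43.3%, against 22.3% of all) and 217 in XH (17.1%, against 20.3% of all). The absolute direction of a scaffold lncRNA with a log2 ratio between -0.92 and 0 therefore depends on the scaling. The difference of 0.77 from the other transcripts is hardly touched by such scalings, since they move all ratios alike. It was 0.62 with quantile normalization, which does not. Across transcripts, which are not replicates and share the same pair of libraries, the log2 values of the libraries correlated with Pearson's r = 0.58 and Spearman's rho = 0.52 over the scaffold lncRNAs. Over the others r was 0.56 and rho 0.55.

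The transcripts carry serial numbers, which were split here into 3 numbering series, and the ratio differs between these series in the table as a whole. Series B and C each open at a long unbroken run of chromosome 1 transcripts, and series A is all that comes before. Numbers of series A do not follow position along a scaffold, as on chrUn_JH376270. Series A goes up to number 3658, series B from 3659 to 11941 and series C from 11942 to 22903, and no source used here says how they arose. Of the scaffold lncRNAs 40% are in series A, 26.1% in B and 33.8% in C, against 16.6%, 35.1% and 48.3% of all listed lncRNAs. The comparison was therefore repeated within each series, and the scaffold lncRNAs had the higher median in all 3.

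In series A, the 510 scaffold lncRNAs had a median of -0.01 and the others one of -0.59. Here 108 scaffold lncRNAs were at least 2-fold higher in WRR (21.2%, against 5.15% of all of series A) and 108 in XH (21.2%, against 26.6%). In series B, the 330 scaffold lncRNAs had a median of 1.14 and the others one of 0.0083, with 181 at least 2-fold higher in WRR (54.8%, against 23.6% of all of series B) and 21 in XH (6.36%, against 15.9%). In series C the gap was smallest, with medians of -1.43 over 428 scaffold lncRNAs and -1.65 over the others. There 17 were at least 2-fold higher in WRR (3.97%, against 0.764% of all of series C) and 288 in XH (67.3%, against 76.1%). Abundance differed by series as well. In series B the scaffold lncRNAs past the filter had a median of 5.77 RPKM in WRR, against 4.16 RPKM of the others. In XH they were lower there, at 2.79 RPKM against 4.16 RPKM. In series A and C their medians were the higher ones in both libraries. Coverage differed by series too. On scaffolds its median in series B was 92.4% in WRR and 66.1% in XH, and in series C 66% in WRR and 92.6% in XH. Among the others it was 92.6% and 82.4% in B and 57.3% and 91.5% in C, in the same libraries.

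Spread, too, was wider on the scaffolds, most of all in series A. The SD of the log2 ratio in series A was 1.60 over the scaffold lncRNAs and 0.74 over the others, and the libraries correlated across transcripts with r = 0.65 over the scaffold lncRNAs and 0.8 over the others. On the log2 scale with 0.1 RPKM added, 8 scaffold lncRNAs were at least 16-fold higher in WRR (0.631%, against 0.495% of all) and 52 in XH (4.1%, against 2.43%). Only 1 of the 8 had reads in XH, and for the rest the added 0.1 RPKM sets the fold. Against a floor of 3 reads, the one of these with most reads was at least 16.1-fold higher in WRR and the next at least 5.45-fold. The 52 also include transcripts without reads in WRR. Transcripts without reads in 1 library were about as frequent as in the whole table, or less so. A dash, which stands for 0 reads, was listed in WRR for 18 scaffold lncRNAs past the filter (1.42%, against 2.13% of all) and in XH for 10 (0.789%, against 0.726%).

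**Figure D2:**
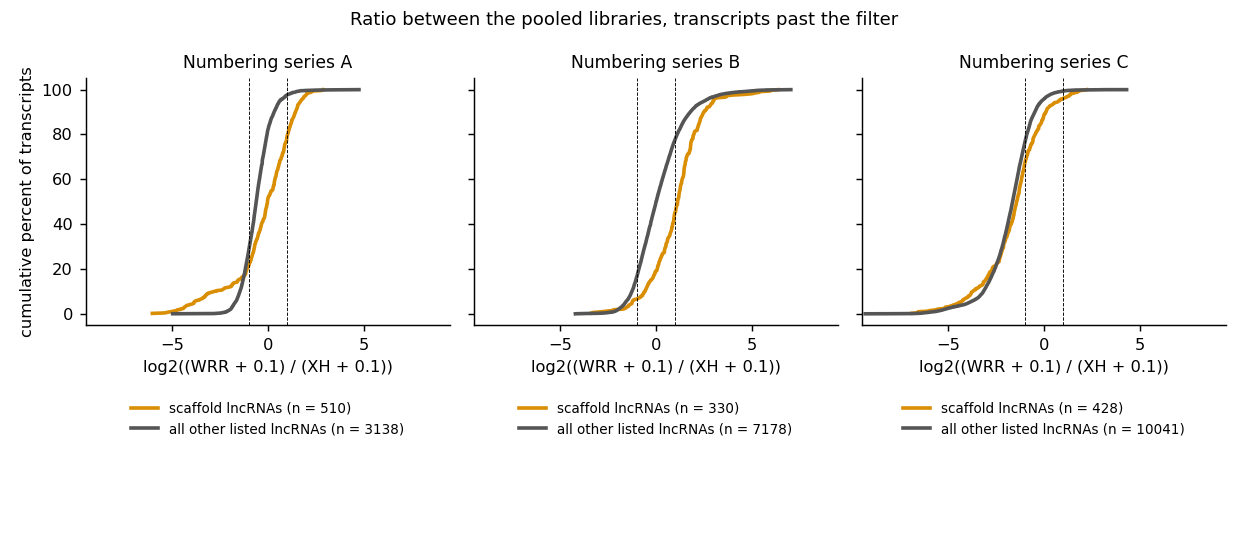
Cumulative percent of transcripts (y axis) against the log2 ratio of WRR over XH (x axis) in each numbering series, for scaffold lncRNAs (orange) and all other listed lncRNAs (grey), with dashed lines at 2-fold. The orange curve lies to the right of the grey one over most of series A and B, with medians of -0.01 against -0.59 and 1.14 against 0.0083. In series A it also has a long left tail.

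Unplaced and random scaffolds were alike in this respect, with medians of -0.20 over 1100 chrUn lncRNAs (-0.36 to -0.076) and -0.11 over 168 random ones (-0.47 to 0.31). Scaffold size made little difference to the pooled median. It was 0.33 on the smallest scaffolds, under 1000 bases, where 39 transcripts give it an interval of -0.87 to 1.19, and in the 5 classes of larger scaffolds it lay between -0.27 and -0.084. In series C it did go with size, with medians of -1.65 (-1.89 to -1.52) under 2000 bases, -1.29 at 2000 to below 20000 bases and -0.95 (-1.21 to -0.71) at 20000 bases or more. At least 2-fold higher in XH were 75.2%, 63.2% and 49.2% in that order, against 76.1% of all of series C. The smallest scaffolds were thus close to the series as a whole. In series A the medians in that order were 0.021, 0.024 and -0.13, and in series B 1.20, 1.16 and 0.94. Those with a scaffold to themselves had a median of -0.12 (n = 771), and those on scaffolds with 6 or more a median of -0.57 (n = 101).

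Transcript length and abundance separated them more. Below 500 bases the 385 scaffold lncRNAs had a median log2 ratio of 0.82 (0.58 to 1.02), and 174 of them were 2-fold or more higher in WRR (45.2%), against 83 in XH (21.6%). The 3835 other listed lncRNAs of that length had a median of -1.04, with 11.4% 2-fold or more higher in WRR and 51.2% in XH. In the longer classes the gap narrowed, to -0.39 on scaffolds against -0.99 elsewhere at 500 to below 1000 bases and to -0.65 against -0.85 at 2000 bases or more. Short scaffold lncRNAs had higher medians than short others in series A (0.99 against -0.19) and series B (1.44 against 0.19). In series C their median of -1.51 has an interval of -1.89 to -0.97, which includes the -1.79 of the others. Of the short ones in series C, 13% were 2-fold or more higher in WRR, against 1.34% of the others. In XH 59.1% were, against 77.9%.

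Abundant scaffold lncRNAs also stood nearer to WRR. Among the 213 with a mean of at least 20 RPKM over the libraries, the median was 0.72 (0.49 to 0.93), with 82 2-fold or more higher in WRR (38.5%), against 25 in XH (11.7%). The 1133 other lncRNAs of this abundance had a median of -0.78, with 5.3% 2-fold or more higher in WRR and 37.8% in XH. Below 2 RPKM the scaffold lncRNAs had a median of -0.88 (-1.56 to 0.028), an interval that reaches past the -1.29 of the others. There 31.1% were 2-fold or more higher in WRR, against 20.6% of the others, and 47.6% in XH, against 56.3%. The abundant transcripts of each series showed the gap, with medians of 0.83 against -0.68 in A, 0.43 against -0.73 in B and 0.20 against -0.98 in C.

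The shape of the interval went with the ratio as well. Where the interval was longer than the transcript, as with introns, the 212 scaffold lncRNAs had a median of 0.98 (0.81 to 1.10). Of these, 102 were 2-fold or more higher in WRR (48.1%), against 17 in XH (8.02%). The 816 others of that shape had a median of -0.18, with 20.5% 2-fold or more higher in WRR and 27% in XH. Where interval and length were equal, the medians were -0.47 over 1014 scaffold lncRNAs and -0.97 over the others. Where the interval was shorter than the transcript the direction turned, with a median of -1.16 (-2.23 to -0.69) over 42 scaffold lncRNAs past the filter, 3 of them 2-fold or more higher in WRR (7.14%), against 24 in XH (57.1%). The 31 others of this shape had a median of -0.58 (-0.94 to -0.04), with 9.68% 2-fold or more higher in WRR and 25.8% in XH. Length and numbering went with shape. Scaffold lncRNAs with the longer interval had a median length of 420 bases, against 724 where interval and length were equal. Series C held 13.7% of the former and 39.3% of the latter, and series A 97.6% of those with the shorter interval. In series A, B and C, the longer interval had medians of 0.88, 1.44 and 0.12, against -0.13, 1.05 and -1.48 at equal length. The part of each trait was not tested.

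Transcripts that fill their scaffold had a lower pooled median. It was -0.11 for the 803 that stayed more than 50 bases from each end, -0.14 for the 392 near 1 end and -1.02 (-1.43 to -0.68) for the 73 near both ends. Of those 73, 6 were 2-fold or more higher in WRR (8.22%), against 37 in XH (50.7%), shares close to the 9.45% and 46.9% of all listed lncRNAs. Series A holds 52 of the 73. Of these 52, 5.77% were 2-fold or more higher in WRR, against 5.15% of all of series A, and 48.1% in XH, against 26.6%. The medians of series A showed the same order, with 0.35 away from the ends, -0.10 near 1 end and -0.86 near both. In series B the medians in that order were 1.15, 1.13 and 0.79, the last over 7 transcripts with an interval of -1.24 to 2.58. Series C did not show the order, with -1.35, -1.69 and -1.35. Those near both ends were also longer, with a median length of 1108 bases against 640 for those away from the ends, and the part of length and of the shape in the difference was not tested. Restricted to intervals equal to the length, the same order gave -0.42, -0.45 and -0.87. All these class medians move by 0.92 when the median of all transcripts is set to 0, which turns the sign of each one between -0.92 and 0.

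**Figure D3:**
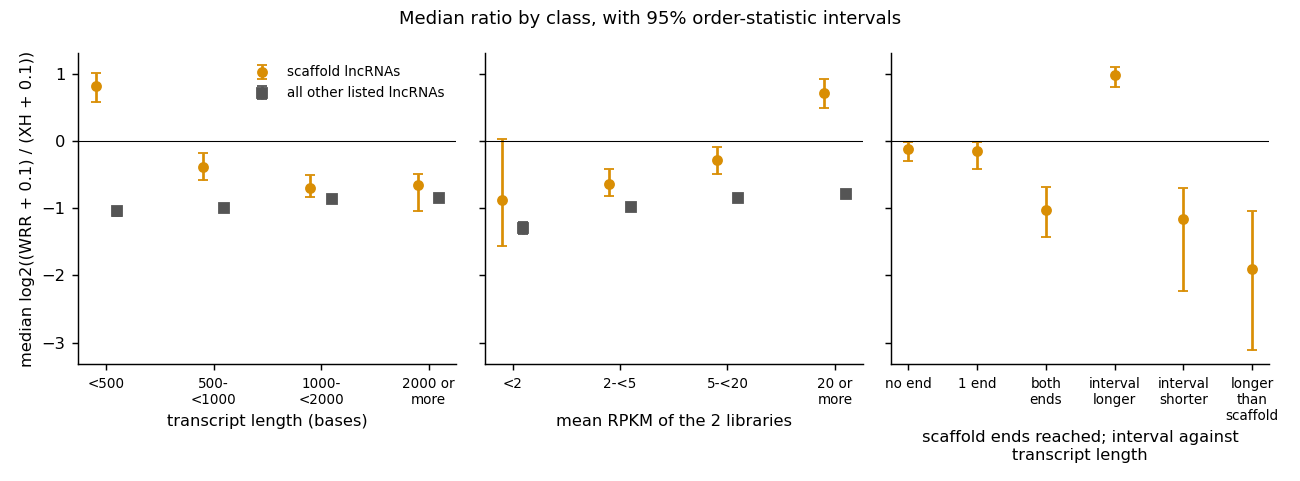
Median log2 ratio of WRR over XH (y axis) with its interval from order statistics (bars), by transcript length in bases, by mean RPKM, and by scaffold ends within 50 bases and interval shape (x axes), for scaffold lncRNAs (orange circles) and other listed lncRNAs (grey squares). Short transcripts (0.82), abundant ones (0.72) and those with intervals longer than the transcript (0.98) lie above 0, and those near both ends (-1.02) or longer than their scaffold (-1.91) lie below. Transcripts longer than their scaffold are part of the class with the shorter interval.

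The 8 scaffold lncRNAs of highest mean RPKM were led by a transcript of 208 bases at chrUn_JH375732:3966-4173. It had 15375 RPKM in WRR, against 9307 RPKM in XH, from 30199 and 14935 reads in the same libraries, which covered 99.5% of its length in each. It was 1.65-fold higher in WRR (1.62 to 1.68), a log2 ratio of 0.72 that turned to -0.45 when the libraries were quantile normalized. This is the only lncRNA listed on that 5164-base scaffold, and it holds more reads than any other of the 949 scaffolds.

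Next came the 1213-base transcript at chrUn_JH376058:1103-2315 with 1419 RPKM in WRR, against 798 RPKM in XH, a fold of 1.78 (1.73 to 1.83). Its 16253 WRR reads covered 89% of the length, and its 7469 XH reads covered 99.9%. More reads thus covered less of this transcript in WRR. The transcript at chrUn_AADN03020153:806-2069, which ends 4 bases before the end of its scaffold, had 882 RPKM in WRR, against 591 RPKM in XH, 1.49-fold higher in WRR (1.45 to 1.54).

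At chrUn_AADN03022440:112-978, a transcript of 639 bases on an interval of 867 bases had 634 RPKM in WRR, against 244 RPKM in XH, a fold of 2.6 (2.44 to 2.78). The 307-base transcript at chrUn_JH375654:15504-15810 had 578 RPKM in WRR, against 287 RPKM in XH, a fold of 2.01 (1.84 to 2.2). A 369-base transcript spread over 1223 of the 1309 bases of its scaffold, chrUn_AADN03020556:63-1285, had 329 RPKM in WRR, against 294 RPKM in XH, a fold of 1.12 (1.02 to 1.22). These 6 were all higher in WRR as deposited, by 1.12-fold to 2.6-fold.

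The other two of the 8 were far higher in XH. The 382-base transcript at chrUn_AADN03013023:1024-1405 had 8.32 RPKM in WRR from 30 reads and 1004 RPKM in XH from 2960 reads, 121-fold more in XH (84.4 to 179). Reads covered 89% of it in WRR and 99.7% in XH, so that it was read along its length in both libraries. This was also the lowest log2 ratio of any scaffold lncRNA with reads in both libraries, -6.90. The transcript at chrUn_AADN03026437:1932-2864, of 1529 bases on an interval of 933 bases that ends at the last base of the scaffold, had 58.9 RPKM in WRR, against 607 RPKM in XH, 10.3-fold more in XH (9.6 to 11.1).

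A further transcript, far more abundant in XH and chosen after its values had been seen, lay at chrUn_JH376396:31029-32636. It had 18.4 RPKM in WRR from 280 reads and 566 RPKM in XH from 7022 reads, 30.7-fold more in XH (27.2 to 34.7), with coverage of 99.2% in WRR and 98% in XH. Its neighbours on the scaffold did not share this difference. The transcript at 30093-30648, ending 380 bases before it, had 9.14 RPKM in WRR, against 3.26 RPKM in XH, and the one at 33576-34893 had 11.8 RPKM in WRR, against 8.46 RPKM in XH, both higher in WRR.

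**Figure D4:**
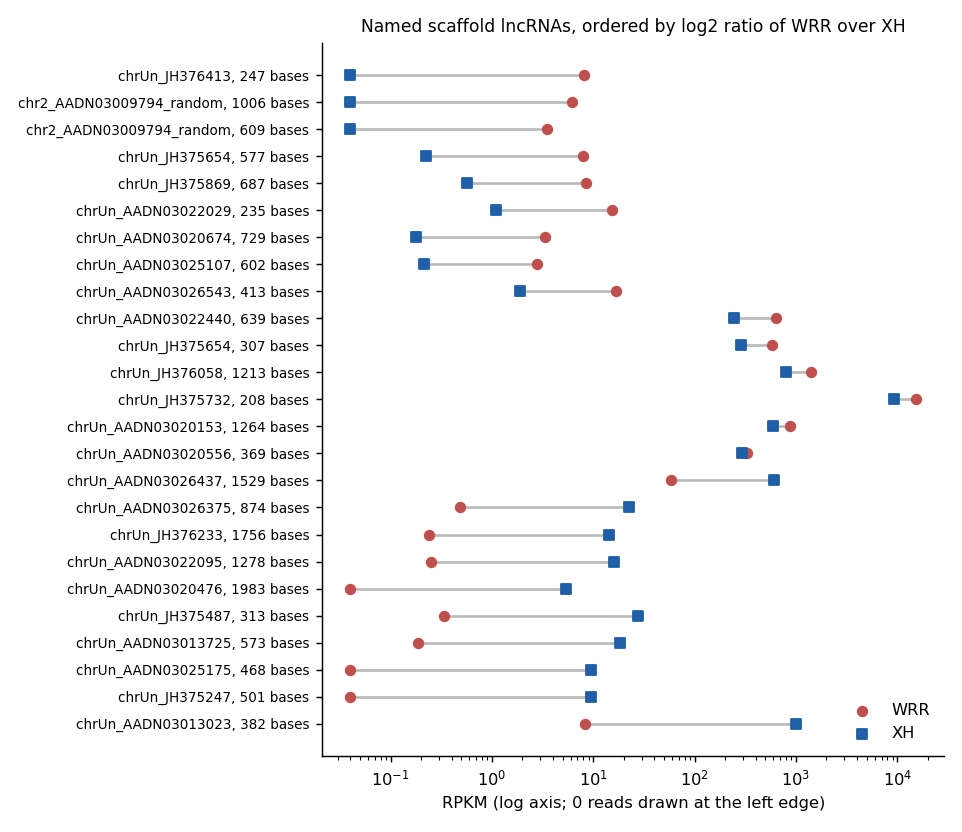
RPKM (x axis, log scale) of the 25 scaffold lncRNAs named by abundance, by ratio or by reads in 1 library only (y axis, ordered by the log2 ratio), in WRR (red circles) and XH (blue squares), with 0 reads drawn at the left edge. The 6 abundant transcripts higher in WRR differ by at most 2.6-fold, while the others differ by 8.85-fold or more or have 0 reads in 1 library.

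After the transcript on chrUn_AADN03013023, the next lowest ratios with reads in both libraries were those of low transcripts whose WRR value rests on 1 to 4 reads. The 573-base transcript at chrUn_AADN03013725:845-1417 had 0.185 RPKM in WRR, against 18.3 RPKM in XH, from 1 and 81 reads in the same libraries, 99.1-fold more in XH with an interval of 17.3 to 3964. At chrUn_JH375487:4634-4946 a 313-base transcript had 0.338 RPKM in WRR, against 27.7 RPKM in XH, from 1 and 67 reads, 82-fold more in XH (14.2 to 3287). Its only listed neighbour, 826 bases at 5077-5902, had 2.56 RPKM in WRR, against 31.7 RPKM in XH, 12.4-fold more in XH (7.8 to 20.7). Both transcripts of that scaffold were thus near 30 RPKM in XH and low in WRR.

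A 1278-base transcript at chrUn_AADN03022095:6-1283 had 0.249 RPKM in WRR, against 16.2 RPKM in XH (3 and 160 reads), 65.3-fold more in XH (21.9 to 320). An 874-base transcript at chrUn_AADN03026375:148-1021, on a scaffold of 1045 bases, had 0.485 RPKM in WRR, against 22.4 RPKM in XH (4 and 151 reads), 46.2-fold more in XH (17.7 to 172). On chrUn_JH376233, of 11339 bases, 2 transcripts with overlapping intervals longer than their length were listed. The 1756-base transcript at 1424-10315 had 0.241 RPKM in WRR, against 14.2 RPKM in XH, 59.1-fold more in XH (22.7 to 219). The 3641-base transcript at 69-9072 had 5.18 RPKM in WRR, against 75.4 RPKM in XH, from 178 and 2118 reads, 14.6-fold more in XH (12.5 to 17.1). Since the table gives no strand or exon, overlapping entries cannot be told apart from a transcript and its antisense partner or from variants of 1 transcript.

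The highest ratios were smaller, and their XH values rest on 1 to 6 reads. All 6 belong to series B. The 577-base transcript at chrUn_JH375654:14673-15353 had 7.89 RPKM in WRR, against 0.225 RPKM in XH, from 43 and 1 reads, 35.1-fold higher in WRR with an interval of 5.98 to 1419. It ends 150 bases before the abundant 307-base transcript of that scaffold, and the 5 lncRNAs listed there were all higher in WRR, with log2 ratios from 0.73 to 4.62. The intervals of 2 of these, at 38167-39035 with a fold of 1.69 (0.884 to 3.37) and at 92924-93499 with a fold of 4.08 (0.871 to 38.3), include 1.

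At chrUn_AADN03020674:1915-3464 a 729-base transcript had 3.34 RPKM in WRR, against 0.178 RPKM in XH (23 and 1 reads), 18.8-fold higher in WRR (3.05 to 774). At chrUn_JH375869:3024-4429 a 687-base transcript had 8.48 RPKM in WRR, against 0.566 RPKM in XH (55 and 3 reads), 15-fold higher in WRR (4.86 to 74.9). Its scaffold mates were higher in WRR too, by 3.36-fold at 938-1361 (2.42 to 4.74) and by 2.65-fold (2.02 to 3.5) at 3059-4429, which overlaps it. At chrUn_AADN03022029:26-260 a 235-base transcript had 15.3 RPKM in WRR, against 1.1 RPKM in XH (34 and 2 reads), 13.9-fold higher in WRR (3.56 to 119), and its neighbour at 808-2309 had 20.1 RPKM in WRR, against 5.26 RPKM in XH, a fold of 3.82 (2.89 to 5.12). In these examples the direction was shared along the scaffold.

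The last 2 of the highest ratios were those at chrUn_AADN03025107:4974-5575 and chrUn_AADN03026543:1082-1494. In the 602-base transcript on chrUn_AADN03025107, 2.81 RPKM in WRR stood against 0.215 RPKM in XH (16 and 1 reads), 13.1-fold higher in WRR (2.03 to 548). In the 413-base transcript on chrUn_AADN03026543, 16.7 RPKM in WRR stood against 1.88 RPKM in XH (65 and 6 reads), 8.85-fold higher in WRR (3.85 to 25). Its neighbour at 145-360, in the same 1636-base scaffold and also of series B, went the other way, with 4.41 RPKM in WRR, against 12 RPKM in XH, 2.72-fold more in XH (1.18 to 6.78).

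Scaffold lncRNAs read in 1 library only were low in the other by a bound that the reads set. It was taken against 3 reads per library, with the reads of the other library as listed, and is followed by the lower end of the exact interval, which also counts the error of those reads. Among those with a dash in WRR, the 1983-base transcript at chrUn_AADN03020476:1-1983 had 83 reads and 5.43 RPKM in XH, at least 33.9-fold higher in XH (26.9). The 501-base transcript at chrUn_JH375247:5205-5705 had 37 reads and 9.57 RPKM in XH, at least 15.1-fold higher in XH (11.7), and the 468-base transcript at chrUn_AADN03025175:645-1112 had 34 reads and 9.42 RPKM in XH, at least 13.9-fold higher in XH (10.7). All 3 belong to series C. The neighbour of the transcript on chrUn_JH375247, at 6281-7712, had 12.4 RPKM in WRR, against 21.5 RPKM in XH, 1.73-fold more in XH (1.42 to 2.13). That scaffold was therefore read in both libraries.

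With a dash in XH, a run of transcripts on chr2_AADN03009794_random stood out. This 19889-base scaffold belongs to chromosome 2, and 7 lncRNAs were listed on it. The 1006-base transcript at 7508-8513 had 59 reads and 6.21 RPKM in WRR with no reads in XH, a fold of at least 16.1 (12.7), and the 609-base one at 3229-3837 had 20 reads and 3.48 RPKM, at least 5.45-fold higher (4.03). The 471-base one at 2636-3106 had 18 WRR reads and 4.05 RPKM, also with a dash in XH. Over the same scaffold the 2730-base transcript at 14395-17124 had 4.58 RPKM in WRR, against 7.45 RPKM in XH, 1.63-fold more in XH (1.27 to 2.09). Reads of XH were thus listed from base 13258 on and none for the 3 transcripts before it. The last of the 3 named for a dash in XH, 247 bases on an interval of 2121 bases at chrUn_JH376413:5343-7463, had 19 reads and 8.15 RPKM in WRR, at least 5.17-fold higher in WRR (3.81). These 3 all belong to series B.

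Entries longer than their own scaffold numbered 23, all in series A, with a median length of 2010 bases. They are part of the 43 entries with an interval shorter than the transcript, and not a separate class. Their median log2 ratio was -1.91 (-3.11 to -1.04), with 2 of them 2-fold or more higher in WRR (8.7%, against 5.15% of all of series A) and 17 in XH (73.9%, against 26.6%). The largest excess was on chrUn_AADN03020476, where a transcript of 9085 bases is listed on a scaffold of 3211 bases. It had 1.21 RPKM in WRR, against 25.4 RPKM in XH from 104 and 1780 reads, 20.9-fold more in XH (17.2 to 25.8), and reads covered 45.9% of it in WRR and 92.7% in XH. The 2983-base transcript at 5-2987 of this scaffold had 0.142 RPKM in WRR, against 7 RPKM in XH, 49.3-fold more in XH (18.9 to 183), so that all 3 entries there were over 16-fold higher in XH.

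On chrUn_AADN03012670, of 1738 bases, transcripts of 7204 and 2786 bases are listed over nearly the same interval. The longer had 5.38 RPKM in WRR, against 47.3 RPKM in XH, 8.79-fold more in XH (7.87 to 9.83), and the shorter had 5.25 RPKM in WRR, against 45.9 RPKM in XH, 8.75-fold more in XH (7.32 to 10.5). Their values are the same within counting error in each library, and with shared sequence they are not independent. Smaller differences were seen on chrUn_AADN03022528, whose 3174-base entry had 8.64 RPKM in WRR, against 26.6 RPKM in XH, 3.08-fold more in XH (2.66 to 3.57). No source used here says how a transcript came to be longer than its scaffold, and the sequence behind these entries was not analysed here.

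Coverage differed from what the reads would give in some transcripts chosen after their values had been seen. At chrUn_AADN03015285:2-2003 a 1899-base transcript had 302 reads covering 81% of it in WRR and 70 reads covering 25.4% in XH. At chrUn_JH376323:8166-30896 a 1702-base transcript on an interval of 22731 bases had 396 reads over 94.4% of it in WRR and 126 reads over 45.2% in XH. In both, the XH reads were gathered in less than the whole transcript, and the folds of 3.52 (2.71 to 4.64) and 2.57 (2.1 to 3.16) in favour of WRR compare unlike stretches.

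Random scaffolds belong to 25 chromosomes or linkage groups, and in 17 of the 25 their median log2 ratio was above that of the transcripts placed on the chromosome itself. Among the 11 with at least 5 scaffold lncRNAs past the filter, this was so in 7. Chromosome 2 had a median of 0.54 over 20 random-scaffold transcripts and -1.11 over the chromosome. The 20 lay on 12 scaffolds, and 6 of these transcripts were on chr2_AADN03009794_random. Chromosome 4 had 0.33 over 17, on 9 scaffolds, and -1.08 over the chromosome. Of these, 12 of the 20 and 10 of the 17 are of series B, the series with the higher ratios, and the part of the numbering was not tested. Chromosome 1 had -0.58 over 30 and -1.04 over the chromosome. The order was reversed on chromosome 7, with -1.30 over 7 and -1.0 over the chromosome. On chromosomes 15 and 20 it was reversed by little, with -0.58 against -0.54 and -0.53 against -0.49. It was also reversed for linkage group LGE22C19W28, with -0.10 over 21 and 0.47 (-0.48 to 2.22) over the 12 transcripts placed on it. The 21 lay on 7 scaffolds, and 10 of these transcripts were on chrLGE22C19W28_N03011227_random. Of series B were 5 of these 21 and 66.7% of the 12.

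Chromosome 16, a microchromosome that carries the chicken major histocompatibility complex and the ribosomal RNA gene cluster, had a higher random-scaffold median than any other of the 11 with at least 5. Its 10 random-scaffold lncRNAs lay on 9 scaffolds and had a median of 1.29, with log2 ratios from 0.01 to 2.08, so that none was higher in XH as deposited. At least 2-fold higher in WRR were 7 of the 10, against 9.45% of all listed lncRNAs past the filter. The naming rules do not cover this group, which was picked out with its ratios already known. The 20 transcripts placed on the chromosome had a median of -1.03. The most abundant of the 10, 370 bases at chr16_AADN03010736_random:821-1190, had 145 RPKM in WRR, against 55.7 RPKM in XH, a fold of 2.59 (2.17 to 3.12).

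On chr16_JH375203_random, with 2 entries, the one at 3912-4514 had 62 RPKM in WRR, against 27.9 RPKM in XH, 2.22-fold higher in WRR (1.81 to 2.73), and the one at 8765-9754 had 4.81 RPKM in WRR, against 2.75 RPKM in XH, a fold of 1.75 (1.02 to 3.09). The largest ratio was that of the 1418-base transcript at chr16_JH375196_random:3612-5029, with 1.87 RPKM in WRR, against 0.366 RPKM in XH from 25 and 4 reads, 5.11-fold higher in WRR (1.76 to 20.2). The folds of 1.1 (0.729 to 1.66) at chr16_JH375199_random:12015-12216 and of 1.01 (0.507 to 2.04) at chr16_JH375202_random:23-812 have intervals that include 1. All 3 numbering series are among the 10, with 4 transcripts of A, 3 of B and 3 of C. Which genes lie on these scaffolds was not analysed here.

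Transcripts of the same scaffold resembled each other in ratio. Of 174 scaffolds with 2 or more lncRNAs past the filter, 125 (71.8%) had all of them on 1 side of the median of all listed transcripts, 83 above it and 42 below. Split at the scaffold lncRNAs' own median instead, 123 did, 61 above and 62 below. Among the 122 scaffolds with exactly 2, 102 (83.6%) had both on 1 side, and among the 10 with 6 or more none had. Such a share falls by its construction as the number of transcripts grows. Groups of like size were not formed among the other listed lncRNAs, so these shares have no direct comparison. Every transcript was 2-fold or more higher in WRR on 22 of the 174 scaffolds and at least 2-fold higher in XH on 38, while 20 scaffolds held transcripts at least 2-fold higher in each direction. The SD of the log2 ratio was 1.21 within scaffolds and 1.84 between scaffold means, over 493 transcripts. With each numbering series set to its own median, the values were 1.03 and 1.51.

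Neighbouring pairs give the same measure for the rest of the table. Of 319 pairs of adjacent scaffold lncRNAs, 74.3% lay on the same side of the median of all transcripts, against 60.4% of 20311 adjacent pairs of the other listed lncRNAs. Of all these pairs, 49.8% on scaffolds and 52.5% elsewhere were of the same numbering series. The size of the gap differed with overlap. Pairs with a distance below 1000 bases and no overlap were on the same side in 76.5% of 153 cases on scaffolds and 65.2% of 7920 elsewhere, with median absolute differences in log2 ratio of 0.79 and 0.75. Overlapping pairs were on the same side in 78.5% of 65 cases on scaffolds and 36.6% of 1146 elsewhere, and 38.5% of those on scaffolds and 11.1% of those elsewhere were of the same numbering series.

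Within the same series, adjacent pairs shared a side in 81.8% of cases on scaffolds and 75% elsewhere. Between different series the shares were 66.9% on scaffolds and 44.2% elsewhere. By distance, 71% of 69 pairs on the scaffolds shared a side at 1000 to below 5000 bases and 62.5% of 32 pairs at 5000 bases or more. Between the distances below 5000 bases the order depends on the measure, since split at the scaffold lncRNAs' own median 72.5% shared a side below 1000 bases and 75.4% at 1000 to below 5000 bases. Because neighbours can share a parent RNA, these pairs are a description of likeness along the scaffold and not independent observations.

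**Figure D5:**
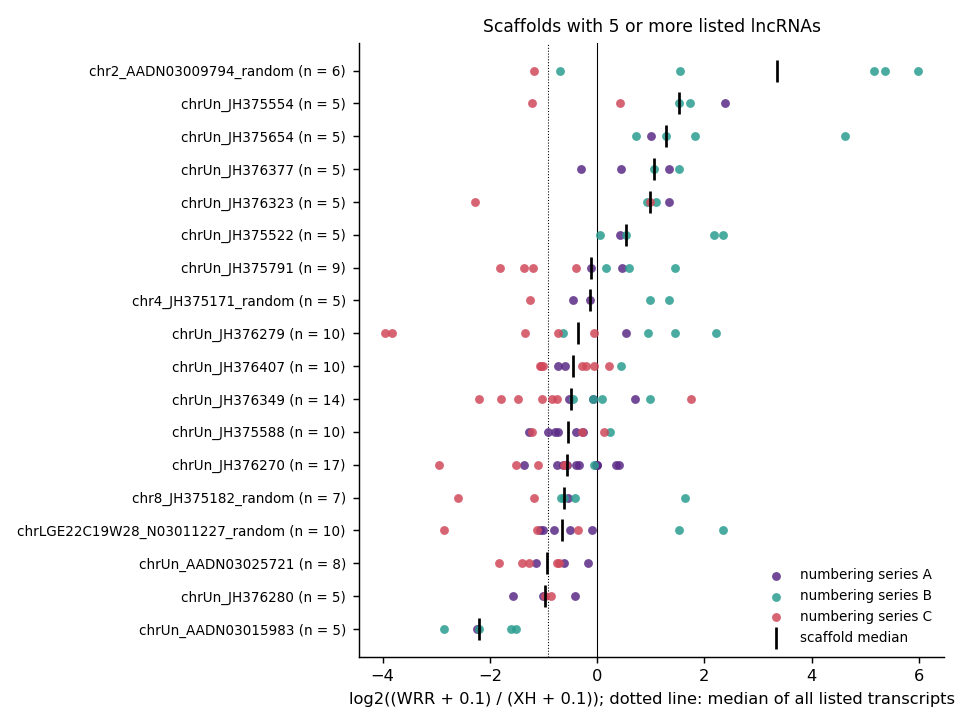
Log2 ratio of WRR over XH (x axis) of each lncRNA past the filter on the 18 scaffolds with 5 or more listed lncRNAs (y axis, ordered by median), coloured by numbering series, with the scaffold median as a bar, a solid line at 0 and a dotted line at the median of all listed transcripts (-0.92). All transcripts of chrUn_JH375654 lie above 0 and all of chrUn_AADN03015983 below -1, while the scaffolds with 10 or more spread to both sides of the dotted line.

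The scaffolds with most lncRNAs sat near the middle. The rule of the 5 with most entries gave 6, since 4 share the same number. On chrUn_JH376270, of 52973 bases, 17 lncRNAs had a median log2 ratio of -0.57 and ran from -2.94 to 0.40. None of them was at least 2-fold higher in WRR, while 4 were in XH. Their levels ran from 0.76 to 7.34 RPKM in WRR and from 3.47 to 9.73 RPKM in XH. From base 21555 to base 39423, 7 transcripts follow one another with gaps of 55 to 379 bases, the longest of 5185 bases at 27723-32907 with 4.68 RPKM in WRR, against 4.75 RPKM in XH, 0.985 as a ratio (0.809 to 1.2).

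On chrUn_JH376349, of 63165 bases, 14 lncRNAs had a median of -0.49 and ran from -2.20 to 1.76. The transcript at 59961-60903 was the only one at least 2-fold higher in WRR, with 31.9 RPKM in WRR, against 9.35 RPKM in XH, a fold of 3.41 (2.61 to 4.51). At 21200-21715 a 516-base transcript had 1.23 RPKM in WRR, against 6.03 RPKM in XH, 4.9-fold more in XH (1.95 to 14.6). The 6 scaffold medians in order of entries, then name, were -0.57, -0.49, -0.65 on chrLGE22C19W28_N03011227_random, -0.55 on chrUn_JH375588, -0.35 on chrUn_JH376279 and -0.44 on chrUn_JH376407, the last 4 with 10 lncRNAs each. All 6 lay above the median of all transcripts and below 0, so each one turned positive when that median was set to 0.

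Within some of these scaffolds transcripts of different numbering series differed in ratio. On chrLGE22C19W28_N03011227_random the 2 series B transcripts at 329-1040 and 1253-1788 were 3-fold (1.4 to 7.12) and 5.51-fold (1.92 to 21.7) higher in WRR. The 8 that follow them, of series A and C, had log2 ratios from -2.86 to -0.09. On chrUn_JH376279, of 171422 bases, the series B transcript at 64370-65572 had 6.34 RPKM in WRR, against 1.29 RPKM in XH, 4.9-fold higher in WRR (2.64 to 9.93). The series C one at 36576-37199, not adjacent to it, had 0.17 RPKM in WRR, against 3.74 RPKM in XH, from 1 and 18 reads. This was 22-fold more in XH (3.48 to 918). Log2 ratios there ran from -0.64 to 2.21 in series B and from -3.95 to -0.06 in series C, so that the ranges overlap. The part of the numbering in these differences was not tested.

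On chrUn_JH375588 an entry of 3254 bases spans 27730 bases from the start of the scaffold, the longest interval among the scaffold lncRNAs, and encloses 4 other listed lncRNAs. It had 4.39 RPKM in WRR, against 7.65 RPKM in XH, 1.74-fold more in XH (1.39 to 2.19), and the 4 enclosed ones were 1.2-fold to 2.48-fold higher in XH, 2 of them with intervals that include 1. On chrUn_JH376407, of 108111 bases, all 10 had log2 ratios between -1.06 and 0.44. Levels on it ran from 2.05 to 7.61 RPKM in WRR and from 4.24 to 9.32 RPKM in XH, a narrower range than on chrUn_JH376349, with 1.23 to 31.9 RPKM in WRR and 1.7 to 26.5 RPKM in XH.

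Some scaffolds with 5 entries had a common direction. On chrUn_AADN03015983, of 2075 bases, 5 overlapping entries were all lower in WRR, with log2 ratios from -2.86 to -1.51. The longest, 2096 bases at 4-2065, had 4.19 RPKM in WRR, against 20 RPKM in XH, 4.78-fold more in XH (3.74 to 6.16). On chrUn_JH375522, of 15328 bases, 5 entries were higher in WRR as deposited, from 0.06 to 2.34. The lowest, at 2703-3383, had a fold of 1.04 with an interval that includes 1 (0.798 to 1.37). The 1291-base transcript at 10996-12286 carried most of the reads, with 330 RPKM in WRR, against 247 RPKM in XH, a fold of 1.34 (1.27 to 1.41). At 6754-7588 of that scaffold, 3.17 RPKM in WRR stood against 0.621 RPKM in XH, a fold of 5.11 (1.76 to 20.2). The most abundant entry of that scaffold thus had one of its smaller folds.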

How the data were processed

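Breast muscle RNA was measured as 1 library of 4 pooled hens per strain. Per the file headers, the deposited counts are of unique reads, a term the headers do not define. If it means reads mapped to 1 place only, reads matching several places are not in the counts. Values of lncRNAs with near-identical copies are therefore uncertain. The deposited RPKM are scaled to the totals in the file headers (9.44 M for WRR, 7.71 M for XH; what they count is not stated), and the formula gave all 1254 listed WRR values and 1260 listed XH values of scaffold lncRNAs within 0.001%. Coverage in the deposited table is a percent, per the file headers, taken here as the part of the length under reads. The submitters' processing notes list galGal4, TopHat2 2.0.8 and Cufflinks 2.0.2 without roles. Assembly, merging of libraries and the non-coding call are not described in the sources used here.

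A dash was taken as 0 reads, since the smallest listed count was 1. Computed here, over the whole table, were log2((WRR + 0.1) / (XH + 0.1)) of RPKM, counts at 2-fold among transcripts whose higher library reached 0.5 RPKM, and folds of RPKM with exact Clopper-Pearson 95% intervals (Python 3.11.15, scipy 1.17.1). Folds against a dash used a floor of 3 reads per library. Without molecular identifiers, reads need not be separate molecules, so intervals and floors cover counting error only. No p-value was computed. TMM factors (edgeR 4.0.16) and size factors (DESeq2 1.42.0) on the counts served as other scalings, beside other pseudocounts and filters. The code was tested on simulated data.

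Named by rule were the 8 of highest mean RPKM, the 6 highest and 6 lowest ratios with reads in both libraries, 3 per direction with a dash in the other library, the 5 scaffolds with most entries (6 with ties), the scaffold with most reads, and scaffold mates of these. Scaffolds were compared with adjacent pairs elsewhere. The transcripts, rules and classes were chosen with earlier results of these data known. Muscle, fat, blood, immune and connective tissue markers among neighbouring genes were not checked, since no annotation of this build was used here.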

Additional observations from a re-analysis of the deposited data

How the results depend on the processing

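The counts moved with the scaling and with the numbering series. The 306 scaffold lncRNAs at least 2-fold higher in WRR became 549 with the median of all transcripts set to 0, 532 with TMM factors, 543 with DESeq2 size factors and 488 with quantile normalization. The 417 higher in XH became 217, 229, 223 and 229 in the same order. Quantile normalization, the split at the scaffold lncRNAs' own median, the centring of each series and the scalings of scaffold medians were added after seeing the data. The median log2 ratio of -0.17 turned to 0.75, 0.69, 0.73 and 0.48 in that order and to 0.15 scaled to the listed reads, which is the construction of these scalings, since they shift the median of all transcripts by 0.31 to 0.92. By numbering series, the counts higher in WRR were 108 (A), 181 (B) and 17 (C), those higher in XH 108 in A and 21 in B, and the medians -0.01, 1.14 and -1.43, over fewer transcripts. Without intervals longer than the transcript the median was -0.50. The difference of 0.77 from the other transcripts cannot change much under a scaling that moves all ratios alike. It was 0.62 with quantile normalization, 0.60 with a pseudocount of 1 RPKM, 0.47 without such intervals and 0.58 (A), 1.13 (B) and 0.22 (C) within series. As a share of the library total, scaffold reads were 1.94% in WRR and 2% in XH, and without the most abundant transcript 8.26% and 7.41% of listed reads in the same libraries. With each series centred, the SD was 1.03 within scaffolds and 1.51 between means. Of 175 values for the 25 named transcripts under 7 settings, 1 changed sign, that of chrUn_JH375732 at -0.45 with quantile normalization. Few could change sign, since 21 of the 25 were past 2-fold as deposited and most were named for an extreme ratio or a dash. This count therefore says little about how firm the directions are.

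The scaffold medians turned positive under centring, TMM factors, DESeq2 size factors and quantile normalization, in that order at 0.34, 0.28, 0.32 and 0.17 on chrUn_JH376270, at 0.43, 0.37, 0.41 and 0.25 on chrUn_JH376349, and at 0.26, 0.21, 0.25 and 0.055 on chrLGE22C19W28_N03011227_random. On chrUn_JH375588 they were 0.36, 0.30, 0.33 and 0.19, on chrUn_JH376279 0.56, 0.50, 0.54 and 0.38, and on chrUn_JH376407 0.47, 0.42, 0.45 and 0.26. No paired analysis was possible because there was 1 pool of birds per strain, which also left no library to omit. Depth limits single transcripts, since 1 read in a library gives fold intervals that span over an order of magnitude.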

Other observations

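Pieces of the assembly close in kind to these scaffolds, but outside the rule, gave the following values. The 62 transcripts on random scaffolds of Z and W lay at a median log2 ratio of -0.60 (interval -1.10 to -0.29). Of these, 1 was 2-fold or more higher in WRR (1.61%, against 9.45% of all listed lncRNAs past the filter) and 25 in XH (40.3%, against 46.9%). The 14 transcripts on linkage group LGE64 had a median of -0.91 (-2.29 to 1.02), and the 12 on LGE22C19W28_E50C23 a median of 0.47 (-0.48 to 2.22). The 6 scaffold lncRNAs below 0.5 RPKM in both libraries had 1 to 3 reads each.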
